A study of Mus musculus with 2 samples.

Results

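The genes described here make and sense prostaglandins and leukotrienes. They are 10 of the 32285 genes counted and were chosen by symbol: Ptgs1, Ptgs2, Ptges, Hpgds, Ptger2, Ptger4, Alox5, Alox5ap, Ltc4s and Ltb4r1. No measured value entered the rule, but earlier results of these data were known when the genes were chosen. RNA was counted in single CD45-sorted cells of flank tumours. The tumours came from MOC2 cells (an oral carcinoma line of the mouse) placed under the skin with 40% Matrigel in female C57BL/6 mice aged 6 to 7 weeks. Control mice received vehicle (5% DMSO in a 30% w:v Captisol solution). The other mice received Momordicine-I, a compound of bitter melon, at 30 mg/kg in the same vehicle, injected into the peritoneum once a day from the time tumours could be felt. There were 10 mice to an arm, of which 3 gave tumours that were pooled before sorting, so each group is 1 library of 1 implanted line and 1 sex. No test between the groups is possible, no p-value is given, and every value compares these 2 libraries.

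Both lipid families start from arachidonic acid that phospholipases free from membranes. The cyclooxygenases turn it into prostaglandin H2, and terminal synthases then form single prostaglandins such as E2 and D2. 5-lipoxygenase, helped by its activating protein, forms leukotriene A4, from which either leukotriene B4, a neutrophil attractant, or leukotriene C4, the first cysteinyl leukotriene, is made. Prostaglandin E2 is known in tumours for dampening the response of T, NK and dendritic cells through the receptors EP2 and EP4.

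After removal of barcodes with fewer than 200 genes or more than 10% mitochondrial UMIs (unique molecular identifiers, the counted RNA molecules), 3364 vehicle and 4370 Momordicine-I cells remained, with medians of 5760 and 5002 UMIs. The 2 libraries shared 10 barcode sequences, 7 of them after the filter. Marker gates named 83.1% of the cells in each library, and a class name below means the cells that pass that gate. Neutrophils were the largest class, with 1839 and 2533 cells, followed by T cells (347 and 321), B cells (214 and 85), monocytes and macrophages (92 and 206), dendritic cells (82 and 140), NK cells (59 and 82) and basophils (55 and 39). Keratin-expressing carcinoma cells, 68 and 178 in number, passed into the CD45 sort, although Ptprc, the gene of CD45, stood there at 24.9 and 11.2 CPM (UMIs per 1000000 UMIs of the class) against 1272 and 1236 CPM in neutrophils. Cells that passed gates of lineages that exclude each other, 352 and 441, were set aside as mixtures. In what follows a pair of values gives vehicle first and Momordicine-I second, a ratio is Momordicine-I over vehicle, and brackets hold exact 95% intervals that cover counting error only and treat the UMIs of 1 cell as independent.

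Ptgs2 (chr1:150100031-150108227, plus strand, GRCm38), which encodes the inducible cyclooxygenase COX-2, was a gene of neutrophils and basophils in these tumours. Neutrophils held 31322 and 37900 of its UMIs, 72.8% and 71.8% of all those in the filtered libraries. Its level there was 2517 CPM (2489 to 2545) with vehicle and 2501 CPM (2476 to 2526) with Momordicine-I. The ratio was 0.994 (0.979 to 1.01), so the level summed over all neutrophils did not differ beyond counting error. Within steps of neutrophil state, described further on, the libraries did differ, in both directions. Basophils stood at 2655 and 2385 CPM and overlapped with neutrophils in both libraries, on 1121 UMIs in 38 cells and 567 UMIs in 26 cells. Monocytes and macrophages followed at 379 (348 to 412) and 510 CPM (485 to 535), apart from the classes above and below them in both libraries. Carcinoma cells stood at 279 and 150 CPM, dendritic cells at 96.1 and 128 CPM, and NK cells were lowest at 14.7 and 15.4 CPM.

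The level of Ptgs2 varied widely among single neutrophils, and by nearly the same amount in the 2 libraries. The median cell stood at 1430 and 1385 CPM, the cell at the 75th percentile at 3313 and 3306 CPM, and that at the 90th percentile at 6082 and 6287 CPM. The highest 10% of the cells held 46.7% and 46.4% of the UMIs, and the single highest cells carried 232 and 353 UMIs. With every cell thinned to 1000 UMIs, which left out 142 and 168 shallower neutrophils, 65.8% and 64.1% had a Ptgs2 UMI, against 83.8% and 81.3% before thinning. NK cells, thinned in the same way, had it in 1.69% and 1.22%, and their median depth was 18652 and 14855 UMIs.

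Between B and T cells of the 2 libraries Ptgs2 differed, on values that a few cells carried. In B cells it was 32 CPM on 46 UMIs and 137 CPM on 58 UMIs, a ratio of 4.28 (2.86 to 6.45), and 1 Momordicine-I cell held 65.5% of its library's UMIs. Without the highest cell of each library the ratio was 1.62, and with doublets removed by score it was 1.59. In T cells the level was 36.6 and 101 CPM, a ratio of 2.76 (2.21 to 3.47), with 49.6% of the later 256 UMIs in 1 cell and a ratio of 1.48 without the highest cells. Counting neutrophil mixtures in their other class turned it to 0.973 in T cells and 0.989 in Tregs. Regulatory T cells (Tregs) stood at 35.2 and 278 CPM, with 84.7% of 150 UMIs in 1 cell, while T cells that were neither Treg nor gamma-delta stood at 35.3 and 37.2 CPM (ratio 1.05, 0.704 to 1.56). The neutrophil gate markers, summed, reached 0.784% and 1.06% of their neutrophil level in B cells, 0.927% and 1.04% in T cells and 0.465% and 0.418% in NK cells. Ptgs2 reached 1.27% and 5.48%, 1.45% and 4.03%, and 0.584% and 0.618% of its own neutrophil level in the same classes. The part of stray neutrophil RNA in the lymphocyte values was not tested.

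In macrophages that express complement C1q the Ptgs2 ratio was 2.34 (1.85 to 2.99), from 238 to 556 CPM in 31 and 52 cells. It was 1.03 when neutrophil mixtures were counted with their other class and 4.92 among cells with at most 0.2% neutrophil-marker UMIs, so its size depended on which cells entered. In carcinoma cells Ptgs2 was lower in the Momordicine-I library, at a ratio of 0.538 (0.477 to 0.608), but 38.7% of the 470 vehicle UMIs came from 1 cell and the ratio without the highest cells was 0.759. As the mean of the cells' own CPM it was 0.942.

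Ptgs1 (chr2:36230426-36252272, plus strand) encodes COX-1, the cyclooxygenase that most tissues express at rest. Neutrophils stood at 30.5 (27.5 to 33.7) and 30.7 CPM (28.0 to 33.7), monocytes and macrophages at 24.6 and 24.0 CPM with overlapping intervals. Within the latter, the C1q macrophages held most of it, at 72.0 and 73.0 CPM, against 8.48 and 10.0 CPM in C1q-low cells. Dendritic, B, T and NK cells stayed at or below 5.12 CPM in both libraries. Carcinoma cells had 1 UMI with vehicle and 39 UMIs with Momordicine-I (in 13 of 178 cells), at a ratio of 15.4 (2.60 to 623). The mean of the cells' own CPM gave 1.55 and counting neutrophil mixtures as carcinoma cells gave 5.15. A further 117 UMIs of the Momordicine-I library lay in 3 of 8 fibroblasts, 94.9% of them in 1 cell.

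The RefSeq promoters of both cyclooxygenases are shown because the 2 genes differ in how they follow neutrophil state, described further on. Each is the 250 bases before the annotated start (GRCm38.p6, 5′ to 3′ on the strand of the gene), and capitals mark matches on either strand to GAGGAA (an ETS core), GGGCGG (GC box) or TTNNGCAA (a C/EBP-type element). The Ptgs2 stretch is chr1:150099781-150100030 and the Ptgs1 stretch chr2:36230176-36230425, both on the plus strand.
Ptgs2: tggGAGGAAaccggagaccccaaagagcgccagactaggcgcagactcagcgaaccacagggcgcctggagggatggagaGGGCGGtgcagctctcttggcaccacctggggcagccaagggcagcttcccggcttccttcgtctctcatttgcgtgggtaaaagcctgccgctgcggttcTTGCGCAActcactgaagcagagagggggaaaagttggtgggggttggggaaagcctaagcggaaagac
Ptgs1: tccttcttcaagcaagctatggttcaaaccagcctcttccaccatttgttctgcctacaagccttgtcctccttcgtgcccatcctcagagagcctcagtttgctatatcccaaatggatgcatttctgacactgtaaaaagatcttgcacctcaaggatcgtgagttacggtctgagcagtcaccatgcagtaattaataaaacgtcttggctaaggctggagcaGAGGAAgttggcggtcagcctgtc
The Ptgs2 stretch held 1 match of each of the 3 motifs and the Ptgs1 stretch held GAGGAA alone. Of 32851 promoter stretches of the same length, 23.3% held GAGGAA, 32.7% GGGCGG and 9.56% TTNNGCAA. TATAAA (12.4% of stretches), TGACG (17.8%), CACGTG (6.02%) and AGATAA (9.99%) matched neither stretch, which says only that these letters are not in this window. GC content was 61.6% for Ptgs2 and 48.0% for Ptgs1, with a median of 52.4% over all stretches.

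The terminal synthases were rare. Ptges (chr2:30889471-30929863, minus strand), the inducible prostaglandin E synthase mPGES-1, gave 107 and 247 UMIs in all filtered cells. In neutrophils it had 18 and 10 UMIs, or 1.45 (0.857 to 2.29) and 0.660 CPM (0.316 to 1.21), and in B and NK cells none in either library, which allows up to 2.09 and 7.09 CPM in B cells and 2.59 and 2.11 CPM in NK cells at 3 UMIs. It was higher outside the immune classes. Carcinoma cells stood at 8.89 and 14.7 CPM on 15 and 63 UMIs, a ratio of 1.66 (0.932 to 3.13) with 66.7% and 38.1% of the UMIs in 1 cell of each library. The 3 and 8 fibroblasts stood at 132 and 136 CPM, on 6 and 23 UMIs that lay in 1 and 2 of those cells. The annotation places Ptges over Gm13400 on the same strand, so reads of the 2 genes may not be separable.

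Hpgds (chr6:65117293-65144908, minus strand), the haematopoietic prostaglandin D synthase, was best seen in C1q macrophages, at 41.5 (23.2 to 68.5) and 43.5 CPM (29.6 to 61.8). C1q-low monocytes and macrophages had 4.71 and 2.40 CPM. Tregs followed at 23.5 (14.7 to 35.6) and 14.8 CPM (6.40 to 29.2), and B cells at 13.9 and 14.2 CPM. Over all gated cells its level was 7.10 CPM (6.08 to 8.24) and 4.77 CPM (4.03 to 5.61), a ratio of 0.673 (0.536 to 0.843) on 172 and 147 UMIs. Neutrophils supplied 87 and 64 of those UMIs, at 6.99 and 4.22 CPM (ratio 0.604, 0.430 to 0.844), spread over 46 and 41 cells. After thinning to 1000 UMIs 4 of 1697 and 12 of 2365 neutrophils had a UMI, and the neutrophil ratio turned to 2.33. In a small set named after its values were seen, 10 mast cells of the Momordicine-I library held 5 UMIs of Hpgds, or 103 CPM (33.4 to 240).

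**Figure D1:**
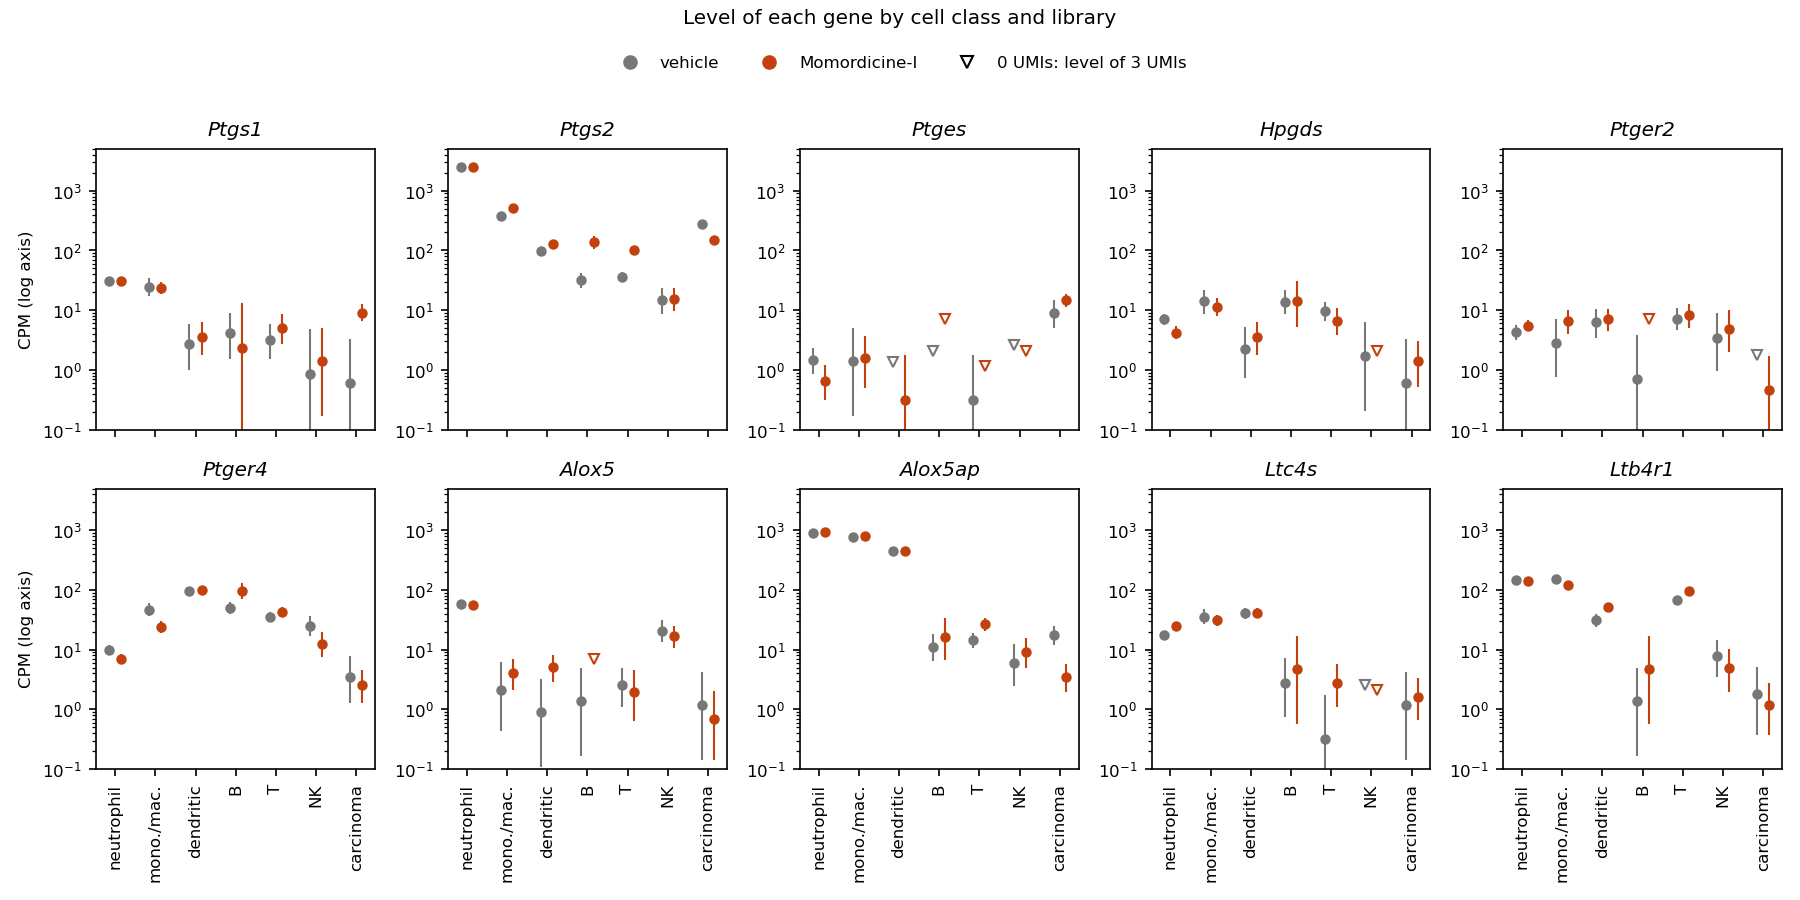
Level of each of the 10 genes (CPM, log axis) in 7 cell classes of the vehicle and Momordicine-I libraries; bars are exact 95% Poisson intervals and open triangles mark the level of 3 UMIs where none was counted. Ptgs2 and Alox5ap stood highest in neutrophils, Ptger4 in dendritic cells, and Ptges in carcinoma cells.

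The 2 receptors for prostaglandin E2 differed in where they were found. Ptger4 (chr15:5206661-5244187, minus strand), which encodes EP4, was highest in dendritic cells, at 96.6 (84.1 to 110) and 99.9 CPM (89.2 to 112), with B cells overlapping it in the Momordicine-I library, and lowest among the immune classes in neutrophils, at 9.88 and 7.06 CPM. The mature dendritic cells, marked by Ccr7 and Fscn1, stood at 264 CPM (213 to 324) in 19 vehicle cells and 141 CPM (116 to 170) in 38 Momordicine-I cells, a ratio of 0.534 (0.401 to 0.714). The Mgl2- and Cd209a-expressing dendritic cells went the other way, at 59.3 and 89.0 CPM (1.5, 1.10 to 2.06), and cDC1 stood at 76.0 and 76.7 CPM. In B cells Ptger4 was 50.1 CPM (39.2 to 63.1) and 96.9 CPM (69.6 to 132), a ratio of 1.93 (1.28 to 2.88) that was 1.03 after thinning and 4.35 with at most 5% mitochondrial UMIs. Conventional T cells also stood higher, at 37.4 (29.3 to 47.0) and 60.9 CPM (47.6 to 76.6). Monocytes and macrophages stood lower, at 47.1 (36.5 to 59.8) and 24.3 CPM (19.2 to 30.3), as did NK cells, at 25.1 and 12.6 CPM on 29 and 18 UMIs. The 2 lower ratios, 0.516 (0.367 to 0.726) and 0.504 (0.264 to 0.939), belonged to summed UMIs, in which deep cells weigh most. The mean of the cells' own CPM gave 1.13 and 1.00, and thinning to 1000 UMIs turned both, to 3.03 and 1.44. The thinned values rest on few cells. Ptger4 was then seen in 2 of 86 and 12 of 199 monocytes and macrophages, and in 2 of 59 and 4 of 82 NK cells. The annotation places Ptger4 over Ttc33 on the other strand.

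Ptger2 (chr14:44988195-45003820, plus strand), which encodes EP2, was rare, with 135 and 204 UMIs in total, of which neutrophils held 39.3% and 41.2%. T cells had 7.25 and 8.27 CPM, dendritic cells 6.29 and 7.02 CPM and neutrophils 4.26 (3.19 to 5.57) and 5.54 CPM (4.42 to 6.86), with overlapping intervals. Among dendritic cells, cDC1 had 12.5 (5.98 to 22.9) and 17.8 CPM (9.48 to 30.5), apart from neutrophils in both libraries. They held 10 of the 14 and 13 of the 22 dendritic UMIs. Gamma-delta T cells had 10.5 and 12.3 CPM, on 3 and 10 UMIs. B cells had 1 UMI and none, and basophils none in either library. In monocytes and macrophages the count was 4 and 21 UMIs, a ratio of 2.33 with an interval of 0.785 to 9.32 that takes in 1.

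Alox5 (chr6:116410077-116461178, minus strand) encodes 5-lipoxygenase. Basophils stood highest, at 298 CPM (249 to 355) on 126 UMIs and 328 CPM (259 to 410) on 78 UMIs, in 37 of 55 and 28 of 39 cells. Neutrophils came next, at 58.5 (54.3 to 62.9) and 56.0 CPM (52.3 to 59.9), followed by NK cells, at 20.7 (13.3 to 30.8) and 16.8 CPM (10.8 to 25.1). These 3 classes were apart from each other in both libraries, and in each of the other 5 large classes, monocytes, macrophages and dendritic cells included, the level was at most 5.11 CPM. In NK cells Alox5 reached 35.4% and 30.1% of its neutrophil level, and the summed neutrophil markers 0.465% and 0.418% of theirs. The part of stray neutrophil RNA in the NK level was not tested.

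Alox5ap (chr5:149264767-149288153, plus strand) encodes the 5-lipoxygenase activating protein, and unlike Alox5 it spanned all the myeloid classes. The order was the same in both libraries and without overlap between neighbours. Basophils stood at 1798 (1672 to 1930) and 2167 CPM (1983 to 2362), neutrophils at 892 and 945 CPM, monocytes and macrophages at 785 and 788 CPM, and dendritic cells at 443 and 456 CPM. Among dendritic cells, the mature ones had 11.6 and 115 CPM, with 33.3% of the later 90 UMIs in 1 cell, and cDC1 547 and 684 CPM. B and NK cells stayed at or below 16.6 CPM. The neutrophil ratio was 1.06 (1.03 to 1.09), while the median ratio of all genes in neutrophils was 1.12. In T cells the level was 14.5 and 26.8 CPM, a ratio of 1.85 (1.25 to 2.75) that fell to 1.15 when neutrophil mixtures were counted as T cells.

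Ltc4s (chr11:50236461-50238616, minus strand), the enzyme that joins leukotriene A4 to glutathione, followed the phagocytes instead. C1q macrophages stood at 94.1 (65.2 to 132) and 66.0 CPM (48.5 to 87.8), Mgl2- and Cd209a-expressing dendritic cells at 58.3 and 64.6 CPM, and all dendritic cells at 40.9 and 41.8 CPM. Neutrophils had 17.6 (15.3 to 20.1) and 25.3 CPM (22.9 to 28.0), a ratio of 1.44 (1.22 to 1.71) that stayed between 1.29 and 1.67 under the 10 alternatives run. Basophils, with the highest Alox5 and Alox5ap, had no Ltc4s UMI in either library, which allows up to 7.10 and 12.6 CPM at 3 UMIs. Its promoter stretch (chr11:50238533-50238782, minus strand), shown for comparison with Ptgs1 because the 2 genes moved together among neutrophils, held none of the 7 motifs searched.
Ltc4s: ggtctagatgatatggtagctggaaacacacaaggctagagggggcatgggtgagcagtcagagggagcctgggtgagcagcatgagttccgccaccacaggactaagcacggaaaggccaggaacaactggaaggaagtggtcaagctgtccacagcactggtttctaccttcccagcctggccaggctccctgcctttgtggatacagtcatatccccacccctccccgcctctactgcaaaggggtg
Promoters were found in RefSeq for 9 of the 10 genes, all but Alox5ap. The annotation places Gm26542 on the other strand of Ltc4s.

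Ltb4r1 (chr14:55765962-55768494, plus strand) encodes BLT1, the high-affinity leukotriene B4 receptor that draws neutrophils and T cells to tissue. Neutrophils stood at 144 (138 to 151) and 140 CPM (134 to 146), and monocytes and macrophages at 152 (132 to 174) and 122 CPM (111 to 135). Gamma-delta T cells were close to them, at 123 (85.6 to 171) and 158 CPM (132 to 188), and Tregs stood at 93.9 and 85.2 CPM. The 34 and 23 group 2 innate lymphoid cells, named after their values were seen, stood at 150 (103 to 210) and 210 CPM (148 to 289). Conventional T cells had 45.6 and 59.2 CPM, while B, NK and carcinoma cells stayed at or below 7.77 CPM. In T cells as a whole the ratio was 1.44 (1.20 to 1.74), where gamma-delta T cells made up 39 of 347 vehicle and 129 of 321 Momordicine-I cells. Within each T cell subset the interval took in 1. The ratios were 1.30 (0.935 to 1.80) in conventional T cells, 1.29 (0.879 to 1.93) in gamma-delta T cells and 0.907 (0.621 to 1.31) in Tregs. The part of the subset numbers in the T cell ratio was not tested. Dendritic cells had 31.0 (24.1 to 39.2) and 52.0 CPM (44.4 to 60.7), a ratio of 1.68 (1.26 to 2.26) that lay between 1.61 and 1.83 under all 10 alternatives. Among them cDC2, the Mgl2- and Cd209a-expressing cells, stood at 62.1 and 82.6 CPM (1.33, 0.979 to 1.82), and mature dendritic cells had 0 and 23 UMIs, with 60.9% of the latter in 1 cell. The 2 kinds of monocytes and macrophages went opposite ways, a difference that was not tested. C1q-low cells had 180 and 125 CPM (0.694, 0.578 to 0.835), and C1q macrophages 69.2 and 114 CPM (1.64, 1.04 to 2.69), or 1.08 with neutrophil mixtures counted in their other class.

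**Figure D2:**
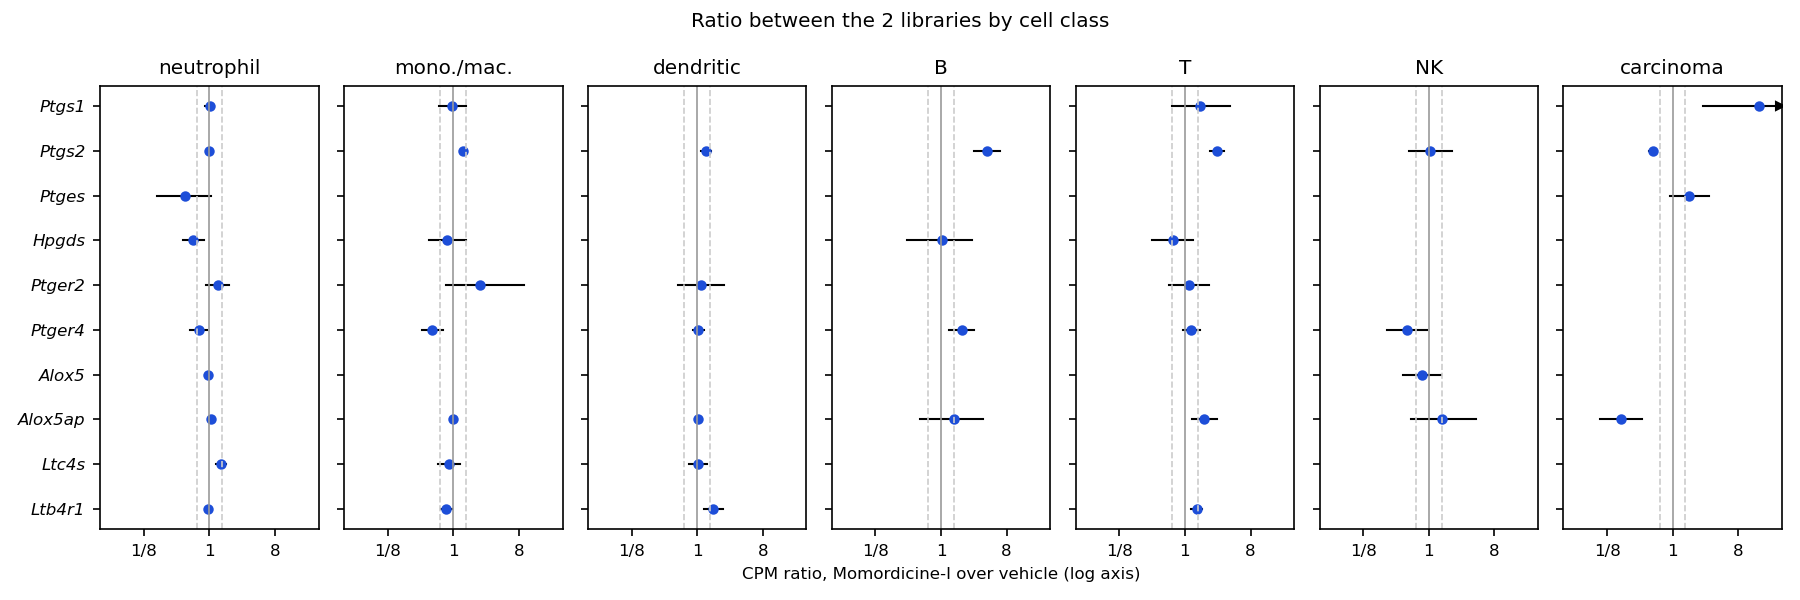
Ratio of the Momordicine-I to the vehicle level of each gene (log axis) in the 7 classes, for genes with at least 20 UMIs over both libraries; lines are exact 95% intervals, an arrow marks one that leaves the axis, and dashed lines mark 1.5-fold. In neutrophils Ptgs1, Ptgs2, Alox5, Alox5ap and Ltb4r1 lie at 1.01, 0.994, 0.957, 1.06 and 0.969. Ptges, Hpgds, Ptger2, Ptger4 and Ltc4s lie further from 1 there, at 0.456, 0.604, 1.30, 0.714 and 1.44.

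Counts over the 10 genes were made in each class. In neutrophils all 10 had at least 20 UMIs. None was higher by 1.5-fold, where 13.9% of 11091 measured genes were, and 2 were lower (Ptges and Hpgds, with 28 and 151 UMIs), where 4.24% of genes were. Their median log2 ratio was -0.03 against 0.16 over all neutrophil genes. Relative to that median Ptger4 was also past 1.5-fold lower, and the split of all called genes moved from 1537 higher and 470 lower to 951 and 762. In monocytes and macrophages 8 were measured, with Ptger2 higher and Ptger4 lower, where 11.2% of genes were higher and 9.47% lower. In dendritic cells 6 were measured and Ltb4r1 alone was past 1.5-fold, being higher, where 9.71% of genes were higher and 7.26% lower. B cells had 4 measured and 2 higher (Ptgs2 and Ptger4), against 10.9% of genes higher and 16.2% lower. T cells had 7 measured and 3 higher (Ptgs1, Ptgs2 and Alox5ap), against 8.40% of genes higher and 8.70% lower. Ptgs1 had only 10 and 13 UMIs in T cells, and the interval of its ratio, 0.658 to 4.14, took in 1. NK cells had 4 measured, with Alox5ap higher and Ptger4 lower, where 7.78% of genes were higher and 9.32% lower. Alox5ap had only 7 and 13 UMIs in NK cells, and the interval of its ratio, 0.560 to 4.47, took in 1. Carcinoma cells had 4 measured, with Ptgs1 and Ptges higher and Ptgs2 and Alox5ap lower, where 7.92% of genes were higher and 19.0% lower. Over all gated cells the 10 genes were all measured and Ptges alone was past 1.5-fold, being higher, where 11.0% of genes were higher and 7.19% lower. Its ratio turned to 0.547 as the mean of the cells' own CPM and to 0.384 after thinning. The thinned value rests on few cells. Among the large classes 3 and 0 neutrophils, 1 and 0 T cells and 0 and 2 carcinoma cells then had a Ptges UMI. Thinning left out 27 and 41 carcinoma cells. Carcinoma cells, 68 and 178 in number, held 15 of the 43 and 63 of the 103 gated Ptges UMIs. Beside these, the neutrophil markers in carcinoma cells reached 1.64% of their neutrophil level with vehicle and 0.285% with Momordicine-I.

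Over steps of mature-type markers, Ptgs1 and Ltc4s were lower and Alox5ap higher in the high step than in cells with none, in both libraries. The states here and below were chosen after values had been seen. Neutrophils were stepped by the share of UMIs from Ly6g, Mmp8 and Retnlg, genes known to be high in mature neutrophils of blood and marrow, into 661 and 689 cells with none and a low, a middle and a high step cut at 0.0808% and 0.259% of UMIs. Ptgs1 was 61.8 (52.9 to 71.8) and 70.2 CPM (60.2 to 81.4) in cells with none and descended with each step to 8.16 (5.23 to 12.1) and 11.6 CPM (8.49 to 15.5) in the high step, which is 7.57-fold and 6.05-fold lower. Ltc4s went from 28.7 and 59.4 CPM to 3.74 and 6.56 CPM, 7.68-fold and 9.06-fold lower. With neutrophils that carried a monocyte or macrophage marker UMI left out, the high step stood at 0.0831 and 0.0975 of the cells with none for Ptgs1 and at 0.0492 and 0.0579 for Ltc4s. Alox5ap ran the opposite way. It stood at 531 and 629 CPM in cells with none, 720 and 776 CPM in the low step, 939 and 986 CPM in the middle step and 1388 (1346 to 1431) and 1268 CPM (1233 to 1303) in the high step.

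Ptgs2 was lower in the high step, at 1701 and 2055 CPM, than in cells with none, at 3020 and 2426 CPM, ratios of 0.563 (0.544 to 0.583) and 0.847 (0.819 to 0.876). With Momordicine-I the low step was the highest, at 2905 CPM. Between the libraries the Ptgs2 ratio was 0.803 (0.777 to 0.830) in cells with none and 1.06 (1.03 to 1.09) in the low step. It was 0.996 (0.969 to 1.03) in the middle step and 1.21 (1.17 to 1.25) in the high step. Alox5 stood at 66.9 and 69.8 CPM in cells with none and at 58.5 and 54.5 CPM in the high step. The ratios of these were 0.874 (0.706 to 1.08), which takes in 1, and 0.780 (0.636 to 0.958). With vehicle the middle step was the lowest, at 47.3 CPM. Over these steps Ltb4r1 showed almost no dependence, between 136 and 150 CPM over the 8 values, with all 8 intervals overlapping. A narrower set, the 170 and 268 cells with at least 0.599% of UMIs from Ly6g, Mmp8 and Retnlg, had Ltb4r1 at 138 and 114 CPM. That is 0.953 (0.815 to 1.11) and 0.799 (0.683 to 0.929) of its level in the rest. The sets differ in depth, with medians of 4073 and 3609 UMIs in cells with none and 6114 and 4918 in the high step. Summed neutrophil markers, of which Retnlg is one, rose from 46983 and 50255 CPM to 155067 and 124815 CPM over the same steps. Monocyte and macrophage markers stayed between 93.8 and 131 CPM.

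**Figure D3:**
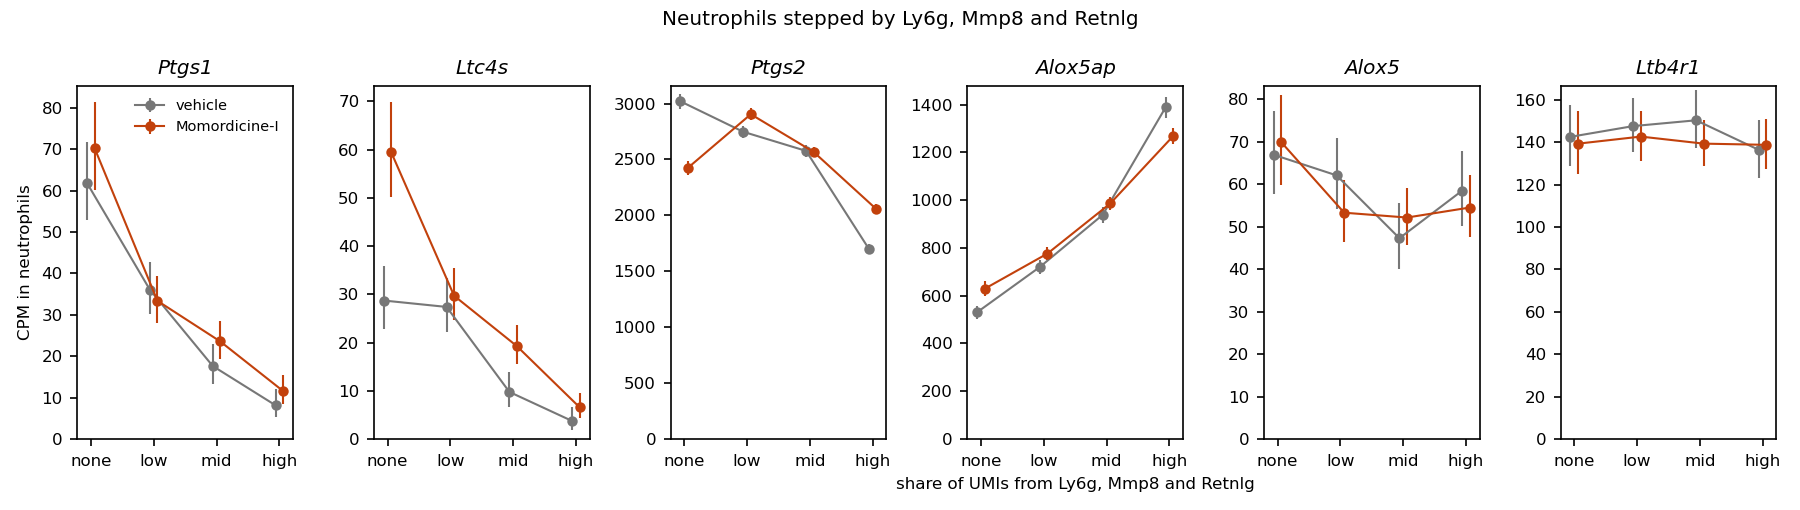
CPM of 6 genes in neutrophils with no UMI of Ly6g, Mmp8 and Retnlg and in 3 steps of rising share, by library, with exact 95% Poisson intervals. Ptgs1 and Ltc4s descend to 8.16 and 3.74 CPM in the vehicle library while Alox5ap rises to 1388 CPM and Ltb4r1 stays between 136 and 150 CPM.

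Siglecf, a sialic acid-binding receptor known from eosinophils and from long-lived tumour neutrophils, marked the neutrophils with most Ltc4s. In cells without a Siglecf UMI Ltc4s stood at 7.47 (5.88 to 9.35) and 12.4 CPM (10.5 to 14.6), in cells with 1 to 2 at 36.7 and 60.5 CPM, and in the 30 and 58 cells with 3 or more at 190 (150 to 239) and 113 CPM (88.0 to 143). The outer steps differed 25.5-fold (18.3 to 35.6) and 9.09-fold (6.73 to 12.2). These 30 and 58 cells, of 1839 and 2533 neutrophils, held 33.8% and 18.2% of the neutrophil Ltc4s UMIs. Among cells with no Siglecf UMI and with 1 to 2, the Ltc4s ratio between libraries was 1.66 (1.25 to 2.22) and 1.65 (1.24 to 2.21), and among those with 3 or more it was 0.593 (0.421 to 0.833).

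Ptgs1 followed Siglecf too, from 21.8 and 21.3 CPM in cells without it to 74.6 (50 to 107) and 103 CPM (79.5 to 132) in cells with 3 or more UMIs. Alox5 went from 51.7 and 53.9 CPM to 95.2 (67.0 to 131) and 88.7 CPM (66.8 to 115). Ptgs2 went the other way, from 2587 and 2548 CPM to 1585 and 1728 CPM. Alox5ap and Ltb4r1 did not follow it in the vehicle library, at 898 and 885 CPM and at 145 and 142 CPM in the outer steps, while in the Momordicine-I library Alox5ap stood at 984 and 714 CPM. Epx and Prg3, granule genes of eosinophils, had 0 UMIs in all 3 steps of both libraries. Summed with the eosinophil markers Prg2, Ear6 and Ccr3 they gave 10.6 and 13.9 CPM without Siglecf. The same sum was 10.3 and 8.06 CPM with 3 or more UMIs, so other eosinophil markers were present at a low level in both. Monocyte and macrophage markers stood at 106 and 117 CPM without Siglecf and at 100.3 and 140 CPM with 3 or more UMIs. With neutrophils that carried any monocyte or macrophage marker UMI left out, the Ltc4s steps differed 33.2-fold and 16.6-fold. Cells with more Siglecf UMIs were deeper, with medians of 10585 and 7237 UMIs against 4955 and 4370.

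**Figure D4:**
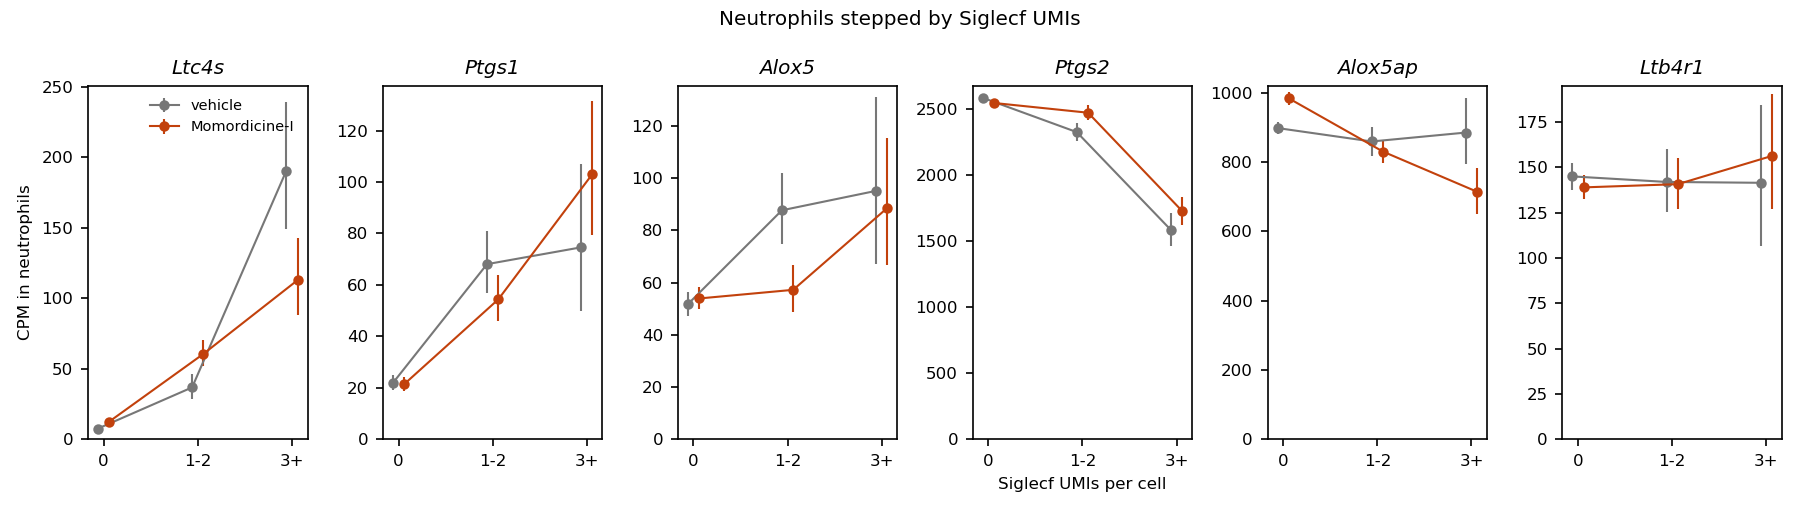
CPM of 6 genes in neutrophils with 0, 1 to 2 and 3 or more Siglecf UMIs, by library, with exact 95% Poisson intervals. Ltc4s, Ptgs1 and Alox5 are higher and Ptgs2 is lower in cells with 3 or more than in cells without, in both libraries.

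Ptgs2 was also described in 4 further neutrophil states. The cells highest in the chemokine gene Cxcl3, 240 and 198 in number, held 3669 and 3735 CPM, 1.57-fold (1.53 to 1.62) and 1.56-fold (1.51 to 1.61) above the rest, with 308 and 254 cells within 1.5-fold of the cut. Cells highest in the hypoxia genes Egln3, Ankrd37, Bnip3 and Ndrg1 held 3074 and 3065 CPM, 1.25-fold above the rest in each library. Interferon-high cells held 2932 and 2459 CPM, which is 1.20-fold above and 0.982 of the rest, and Saa3-expressing cells 3416 and 2496 CPM, 1.38-fold above and 0.998 of the rest. The Saa3 set was the 45 and 167 cells with at least 3 Saa3 UMIs. These were deeper, with medians of 10587 and 7750 UMIs against 5066 and 4444 in the rest. Alox5ap was lower in the Cxcl3-high cells, at 0.687 and 0.758 of its level in the rest. In thinned neutrophils Alox5ap was seen in 47.8% and 54.7% of cells with Ptgs2 and in 54.0% and 53.8% of cells without.

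Of 45 further genes of the pathway, 44 were in the files. In neutrophils 29 of them had at least 20 UMIs, with 6 higher by 1.5-fold (Ptges2, Akr1b3, Cbr1, Ptgr2, Ptger1 and Mgst3) and 4 lower (Tbxas1, Mgst2, Dpep3 and Ltb4r2), where 13.9% of all genes were higher and 4.24% lower. Of these, Akr1b3, an aldo-keto reductase that can form prostaglandin F2 alpha, stood at 2.65 and 5.08 CPM (1.92, 1.26 to 2.98), and Ptgr2, a prostaglandin reductase, at 3.70 and 5.74 CPM (1.55, 1.07 to 2.27). Lta4h, which makes leukotriene B4, was chosen for its role and stood at 25.8 and 24.7 CPM in neutrophils. So were Cyp4f18, which inactivates leukotriene B4 in mouse neutrophils, with 275 and 283 CPM, and Pla2g4a, the cytosolic phospholipase that frees arachidonic acid, with 12.1 and 14.3 CPM. Monocytes and macrophages had 23 measured, with Hpgd higher and Ggt5 lower (11.2% and 9.47% of all genes). Dendritic cells had 21, of which 3 were higher and 1 lower (9.71% and 7.26% of all genes). B cells had 9, with 1 higher and 2 lower (10.9% and 16.2%). NK cells had 9, with 1 higher and none lower (7.78% and 9.32%). The higher one in NK cells was Cysltr2, a cysteinyl leukotriene receptor, at 40.6 and 62.5 CPM (1.54, 1.07 to 2.24). T cells had 18, of which 1 was higher and 3 were lower (8.40% and 8.70%). The higher one was Cysltr1, the main cysteinyl leukotriene receptor, at 9.14 and 32.3 CPM on 29 and 82 UMIs, a ratio of 3.53 (2.29 to 5.60). Carcinoma cells had 20, with 3 higher and 7 lower (7.92% and 19.0%). Alox12 was higher there, at 8.89 and 30.4 CPM (3.42, 2.00 to 6.28) with 53.3% of its 15 vehicle UMIs in 1 cell, and Slco2a1, a prostaglandin transporter, lower, at 86.6 and 43.5 CPM (0.502, 0.402 to 0.628). Pla2g4a and Pla2g7 were lower there as well, at ratios of 0.485 and 0.311, with 50.6% and 53.2% of their vehicle UMIs in 1 cell. The median carcinoma cell had 1467 and 2018 UMIs, while the 68 and 178 cells together held 1686479 and 4278015 UMIs. Deep cells thus weigh most in all summed carcinoma levels, that of Slco2a1 included.

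Over the 14 levels of the 7 classes in both libraries, the genes most like Ptgs2 on the log2(CPM + 1) scale were Neat1 (Pearson r = 0.985), Dhx38 (0.970) and Ier3 (0.964), those most like Alox5ap were Cd300c2 (0.996), Pilra (0.99) and Csf2rb (0.984), and those most like Ptger4 were Hps3 (0.95), Arl5c (0.95) and Dpp4 (0.947). These are descriptions over points that share libraries and depth. Ltc4s was closest to Scand1 (0.992), and Ltb4r1 to Gpr146 (0.93). Among the 10 genes themselves, Alox5ap and Ltc4s were the most alike pair (0.926). The 7 classes leave out basophils, where Alox5ap stood highest and no Ltc4s UMI was counted. Within neutrophils Alox5ap and Ltc4s ran opposite ways over the mature-type steps.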

How the data were processed

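For each of the 2 libraries the authors deposited a matrix of raw UMI counts, made with 10x Genomics 3' chemistry per the labels' protocols. Cell Ranger 6.0.2 and mm10 are named in the submitters' processing notes. The counts behind the filtered cells were 33179710 and 40284090 UMIs.

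Cells were named by marker gates: at least 3 UMIs over 2 or more markers of a lineage, making up at least 20% of the lineage's reference share of UMIs. Gate thresholds, trimmed marker lists, the Siglecf and mature-type steps and 4 added alternatives were chosen after seeing the data. The 10 genes and all lists were chosen with earlier results of these data known. The named genes are all 10 members, and pathway genes with at least 100 UMIs in a class and a ratio past 1.5-fold (at most 6 a class). Genes of smaller classes, and 3 pathway genes of neutrophils named for their role, were chosen after values were seen. Likeness was computed over genes at 50 CPM or more in a class.

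UMIs were summed per class and library (CPM of the sum). Ratios carry exact conditional binomial, levels exact Poisson and shares exact Clopper-Pearson 95% intervals. A gene was measured at 20 UMIs over both libraries, and past the fold at 1.5 or its inverse. The floor is 3 counts per class and library. No test was run, since a group has 1 library. Scrublet's automatic call marked 2 and 1 doublets and was not used. Instead, mixtures were set aside, and an alternative removed the 98 and 164 highest scores. Python 3.11.15, scanpy 1.11.5 and scipy 1.17.1 were used, and the ratio code was tested on simulated data. Positions are those of GENCODE for GRCm38, and promoters those of RefSeq for GRCm38.p6.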

Additional observations from a re-analysis of the deposited data

Results flagged for a closer look

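Some genes moved in opposite directions between the libraries in different classes. With 1 library per group these differences were not tested. Ptgs2 was higher in the Momordicine-I library in B cells and T cells and lower in carcinoma cells, so that its B cell ratio was 7.95 times and its T cell ratio 5.12 times its carcinoma cell ratio. Single cells held 65.5% of the Momordicine-I UMIs in B cells, 49.6% of those in T cells and 38.7% of the vehicle UMIs in carcinoma cells. The ratio was 1.59 in B cells with doublets removed, 0.973 in T cells with neutrophil mixtures counted and 0.942 in carcinoma cells as the mean of the cells' CPM. Alox5ap did the same in T cells against carcinoma cells, by 9.37 times. Its carcinoma ratio was 0.197 (0.0986 to 0.378) on 30 and 15 UMIs, with 60% of the vehicle UMIs in 1 cell. The carcinoma ratio of Alox5ap was 1.02 among cells with at most 0.2% neutrophil-marker UMIs. Ptger4 was higher in B cells and lower in monocytes and macrophages (3.75 times) and in NK cells (3.84 times). After thinning to 1000 UMIs its ratio was 1.03 in B cells, 3.03 in monocytes and macrophages and 1.44 in NK cells. By averaging each cell's CPM it was 1.13 and 1.00 in the last 2 classes, so the opposite directions were not seen under these settings. Thinned, only 2 and 12 monocytes and macrophages and 2 and 4 NK cells had a Ptger4 UMI. The intervals of these shares overlap between the libraries, so they cannot tell a reversal from no change.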

How the results depend on the processing

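Over 73 ratios under up to 10 alternatives each, 601 of 714 recomputed values stayed within the counting interval of the reported value, 99 moved outside it and 14, of ratios reported past 1.5-fold, turned to the other side of 1. No paired analysis was possible because each group has 1 library. With the mean of the cells' CPM the neutrophil Ptgs2 ratio was 1.02, Ptger4 was 1.13 in monocytes and macrophages and 1.00 in NK cells, Ptges was 0.547 in all gated cells, and 4 of the 10 genes were past 1.5-fold in monocytes and macrophages in place of 2. With cells thinned to 1000 UMIs the neutrophil Ptgs2 ratio was 0.956, Hpgds 2.33 in neutrophils and 0.904 in all gated cells, Ptger4 3.03 in monocytes and macrophages and 1.44 in NK cells, Ptgs2 0.806 in gamma-delta T cells and Ptges 0.384 in all gated cells; 0 genes were then past 1.5-fold in neutrophils and 1 in monocytes and macrophages. Scaling by the median ratio of all genes gave 0.890 for Ptgs2 in neutrophils; the log2 shift was 0.16 there and -0.14 in carcinoma cells, and moved the share of calls that are higher from 76.6% to 55.5% and from 29.4% to 45.5%. Removing doublets by score gave Ptgs1 ratios of 0.633 in T cells and 0.925 in Tregs. Doubling the marker minimum gave 1.10 for Ptger2 in conventional T cells. Counting neutrophil mixtures in their other class gave Ptgs2 ratios of 0.973 in T cells and 0.989 in Tregs and left 1 gene past 1.5-fold in monocytes and macrophages. Limiting other classes to 0.2% neutrophil-marker UMIs gave 1.02 for Alox5ap in carcinoma cells and 0.529 for Hpgds in all gated cells. The cause of these shifts was not tested. Without a minimum of UMIs 4307 in place of 2007 genes were past 1.5-fold in neutrophils and 3766 in place of 1905 in monocytes and macrophages. Depth limits Ptges, Hpgds and Ptger2, with under 300 UMIs per library each. The thinned ratios of Ptges, and of Ptger4 in monocytes, macrophages and NK cells, rest on the few cells given above.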

Other observations

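The 352 and 441 cells set aside as mixtures of lineages held 8147091 of 33179710 and 8500473 of 40284090 UMIs. They held 50.5% and 47.8% of the Ptges UMIs, 31.1% and 33.3% of the Hpgds UMIs, 26.9% and 25.4% of the Ptgs1 UMIs, and 27 of 135 and 33 of 204 Ptger2 UMIs. In these cells Ptges stood at 6.63 (4.98 to 8.65) and 13.9 CPM (11.5 to 16.6), with 40.7% and 44.9% of the UMIs in 1 cell of each library. Among the few fibroblasts and mast cells, named after their values were seen, Ptgs1 and Alox5 were present in the Momordicine-I library at 689 CPM in 8 fibroblasts and 144 CPM in 10 mast cells.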
